A study of Mus musculus with 12 samples.

Results

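The genes described here are 39 actin-binding and contractile cytoskeleton genes, which encode the proteins that bind, cross-link, anchor or pull on actin filaments. They were chosen by name, and the rule used no measured value: the rows of the deposited count table whose mouse Ensembl identifiers carry the listed symbols. Earlier results of these data were, however, known when the genes were chosen. All 39 were found among the 55487 genes of the table, and 38 of them were among the 13581 genes with enough counts to be tested. *Lmod1* was not. The cells were im-TEC, conditionally immortalized mouse tubular epithelial cells, and their messenger RNA was measured by QuantSeq 3′ sequencing, which reads the end of each transcript, so that levels are not compared between genes here. The cells carry SV40 large T antigen. All 4 groups were grown in serum with insulin, hydrocortisone and EGF (epidermal growth factor), kept at 33 °C with interferon-gamma and moved to 37 °C without it for 7 days, which lowers that antigen's activity, before they were seeded. The groups, of 3 libraries each, were an untreated control, TGFβ at 10 ng/mL, the inhibitor NNMTi, which is 5-amino-1-methylquinolinium, at a dose of 50 µM, and a combined group given both agents, all for 48 h. NNMTi is named for nicotinamide N-methyltransferase, the enzyme it blocks. The labels do not say whether replicates were grown separately. The p-values therefore reflect the spread among these libraries alone, which may be technical.

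Gene counts per library ranged from 2584117 to 11866903. Levels are given as CPM, counts scaled to a fixed total of the tested genes in each library, adjusted by TMM factors. With totals of all genes and without that adjustment, 3 counts equalled 0.253 to 1.16 CPM in these libraries. Both extremes were TGFβ libraries, replicate 3 the shallowest and replicate 2 the deepest. The biological coefficient of variation, edgeR's measure of spread between replicates, was 0.227 in the TGFβ group, 0.112 in the combined group, 0.0884 with the inhibitor and 0.0657 in the controls. TGFβ replicate 2 was the highest of its group for 17 of the 38 tested contractile genes and the lowest for 13. Of 18 tubular epithelial markers, 12 were tested. *Pax8*, a transcription factor of the tubule, stood at 220.5 ± 17.9 CPM (mean ± SD, n = 3) in the controls, while *Epcam* and *Slc34a1* had no count in any library and *Cdh1* had at most 0.355 CPM. The tubular list summed to 2972 to 3109 CPM in the controls, 3213 to 3384 with the inhibitor, 2435 to 2782 with TGFβ and 2272 to 2462 with both. With TGFβ 3 of its 12 tested genes were higher and 6 lower, 5 of these at least 2-fold, and with the inhibitor 1 was higher and 2 lower. Of all genes tested, 19.4% were higher and 17.1% lower with TGFβ, and 2.47% and 5.80% with the inhibitor. The 12 smooth muscle and pericyte markers, which include *Cnn1*, *Des* and *Lmod1* of the list, summed to 67.8 to 78.2 CPM in the controls, 44.0 to 48.7 with the inhibitor, 143 to 215 with TGFβ and 166 to 270.4 with both. Of these 12, 7 were below 1 CPM in every group, and the defining *Myocd*, *Kcnj8* and *Abcc9* had no count. Among 10 fibroblast markers 6 had no count, including *Pdgfra*, *Lum* and *Thy1*, and the list summed to 1.9 to 2.72 CPM in the controls, 0.328 to 1.21 with the inhibitor, 6.89 to 10.6 with TGFβ and 1.12 to 2.11 with both. Among 9 muscle markers 8 were below 1 CPM in every group, and *Tnnt2*, cardiac troponin T, carried the list at 22.8 ± 2.74 CPM in the controls, 3.8 ± 0.928 with the inhibitor, 241 ± 31.4 with TGFβ and 51.9 ± 5.27 with both. The 6 endothelial markers were below 1 CPM in every group, and 6 immune markers summed to 74.1 to 79.1 CPM in the controls, 59.9 to 71.3 with the inhibitor, 43.5 to 58.5 with TGFβ and 25.8 to 31.6 with both. The part of these marker genes in the results was not tested. In such bulk samples, fewer cells of a kind and less RNA per cell cannot be told apart.

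Cells pull on their surroundings through actin filaments along which myosin II slides. Tropomyosins, calponins and caldesmon sit on the filament and set its access to myosin, α-actinins and filamin tie filaments together, and vinculin, zyxin and LIM-domain adaptors join their ends to adhesion sites. In kidney tubule cells exposed to TGFβ these proteins are known to build up as stress fibres, and several of their genes are classical targets of SRF (serum response factor), which reads actin assembly through its MRTF coactivators and binds a DNA element named the CArG box. Nicotinamide N-methyltransferase uses the methyl donor S-adenosylmethionine to methylate nicotinamide.

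RefSeq promoter windows, from 250 bases before to 50 bases after an annotated transcript start (build GRCm38.p6), were found for 36 of the 39 genes. *Tagln*, *Csrp2* and *Svil* had no window and were not searched. On either strand, a CArG box lay in a window of 6 of the 36 (16.7%), against 1.81% of 27025 genes with a window. The SMAD element CAGAC lay in windows of 21 of 36 (58.3% against 53.2% of all genes) and the TEAD element CATTCC in 12 of 36 (33.3% against 16.6%). These are descriptions of letters in a window, not of binding. The stretches upstream of the start that hold the CArG box are shown because they are the sequence feature that several of these genes share. Each is 5′ to 3′ on the strand of its gene, and capitals mark the CArG box.
Cnn2 (chr10:79988504-79988593, + strand): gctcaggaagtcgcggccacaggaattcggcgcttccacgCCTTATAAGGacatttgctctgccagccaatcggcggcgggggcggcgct
Fhl1 (chrX:56779541-56779630, + strand): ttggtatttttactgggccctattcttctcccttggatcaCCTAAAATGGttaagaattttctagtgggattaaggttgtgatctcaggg
Fhl2 (chr1:43163962-43164032, - strand): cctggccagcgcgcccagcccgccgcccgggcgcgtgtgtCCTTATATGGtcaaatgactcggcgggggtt
Fhl2 (chr1:43196808-43196897, - strand): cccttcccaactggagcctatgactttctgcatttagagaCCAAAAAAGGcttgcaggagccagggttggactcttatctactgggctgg
Myl6 (chr10:128493010-128493099, - strand): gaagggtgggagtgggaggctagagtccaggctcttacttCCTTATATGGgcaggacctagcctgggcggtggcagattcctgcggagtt
Myl9 (chr2:156775263-156775352, + strand): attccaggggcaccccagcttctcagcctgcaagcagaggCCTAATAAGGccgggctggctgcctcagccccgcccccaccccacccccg
Vcl (chr14:20929148-20929220, + strand): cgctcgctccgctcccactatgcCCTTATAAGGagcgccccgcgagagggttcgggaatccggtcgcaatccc
The box lay 56 to 47 bases upstream of the start of *Cnn2*, 31 to 22 and 96 to 87 bases upstream of different starts of *Fhl2*, and 50 to 41 upstream of *Myl6*. It lay 102 to 93 bases upstream of *Fhl1*, 161 to 152 upstream of *Myl9* and 227 to 218 upstream of *Vcl*. With TGFβ alone *Myl9*, *Vcl*, *Cnn2*, *Fhl2* and *Fhl1* rose, by 6.51-, 2.64-, 2.52-, 2.36- and 2.16-fold. Of all genes tested 19.4% were higher, but of the 38 tested genes of the list 28 were, so a rise was common with or without a box found. *Myl6* passed no test in any comparison. For the inhibitor the 6 genes differed, as their values below show. With the inhibitor alone *Cnn2*, *Fhl2* and *Myl9* were lower, while *Vcl* and *Fhl1* did not pass the test. In the combined group *Myl9* and *Fhl1* were lower than with TGFβ. Of the 38 tested genes of the list, 22 were lower with the inhibitor alone and 9 in the combined group than with TGFβ. The part of the box in these differences was not tested.

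TGFβ raised most of the list. Against control, 28 of the 38 tested genes were higher and 3 lower (edgeR quasi-likelihood test, adjusted p below 0.05, which is what "called" means here), while 19.4% and 17.1% of all genes tested were called higher and lower. The median log2 difference over the 38 was 0.77, against 0.02 over all genes tested, and 17 rose at least 2-fold, as 6.02% of all genes did. All 5 calponin and transgelin genes, all 6 tested tropomyosin and thin-filament genes and all 6 LIM-domain adaptors rose, as did 5 of 6 focal adhesion genes, 4 of 7 cross-linkers and 2 of 6 myosin genes. *S100a4*, *Mylk* and *Svil* fell. The TGFβ libraries lay wholly above the controls for 28 of the genes and wholly below for 3, against 23.0% and 22.4% of all genes. Without TGFβ replicates 2 and 3, where the lone TGFβ library is assumed to vary like the other groups, the number of calls was again 28 and 3, but *Vasp* and *S100a4* were lost (adjusted p 0.0577 and 0.638) and *Actn4* and *Vim* gained (0.00171 and 0.0091). The 39 genes summed to 14245 to 14462 CPM in the controls, 25073 to 26093.5 with TGFβ, 10339 to 10636 with the inhibitor and 25430.2 to 26399 with both.

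With the inhibitor alone, most calls were falls. Against control, 22 genes were lower and 1, *Mylk*, was higher, where 5.80% and 2.47% of all genes were called lower and higher. The median log2 difference was -0.57, against 0.01 over all genes, and 8 fell at least 2-fold, as 2.34% of all genes did. The falls covered all 5 calponin and transgelin genes, 6 of 7 cross-linkers, both intermediate filaments and 4 of 6 thin-filament genes, but 2 of 6 focal adhesion genes and 1 of 6 LIM-domain adaptors. The low numbers in the last 2 groups depended on the fit. With only the control and inhibitor libraries fitted, *Vcl*, *Zyx*, *Pdlim7*, *Csrp1* and *Fhl1* were also called lower (adjusted p 6.62e-05 to 0.042). The inhibitor libraries lay wholly below the controls for 29 genes and wholly above for 2, where 18.7% and 17.0% of all genes did so.

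In the presence of TGFβ fewer of the genes were called for the inhibitor. These numbers of calls do not test whether its effect changed, which is tested below as an interaction. Between the combined group and TGFβ, 9 genes were lower and 2 higher, where 6.97% and 3.45% of all genes were called, the median log2 difference was -0.13, against -0.02, and 4 fell at least 2-fold, as 2.96% of all genes did. The lower genes were *Cnn1*, *Myl9*, *S100a4*, *Synpo2*, *Svil*, *Tns1*, *Sorbs2*, *Fhl1* and *Vim*, and the higher ones *Mylk* and *Csrp2*. The combined libraries lay wholly below the TGFβ libraries for 14 genes and wholly above for 3, where 13.8% and 10.1% of all genes did so. With the inhibitor in both groups, TGFβ raised 30 genes and lowered 2, where 18.0% and 18.3% of all genes were called higher and lower, with a median log2 difference of 1.24 and 26 rises of at least 2-fold, found in 5.82% of all genes. Against control, the combined group was higher for 22 genes and lower for 4, *S100a4*, *Svil*, *Sorbs2* and *Vim*, where 15.3% and 16.5% of all genes were called. The combined libraries lay wholly above the inhibitor libraries for 30 genes and wholly below for 3, against 26.0% and 26.1% of all genes, and wholly above the controls for 25 and below for 4, against 27.0% and 24.9%. Scaling by library size alone shifted the median of all genes between the combined group and control by -0.116, the largest such shift, and turned no called gene of the list. All genes were then called higher in 1404 cases and lower in 2899, rather than 2077 and 2244, and for the inhibitor alone in 204 and 1036, rather than 335 and 788.

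**Figure D1:**
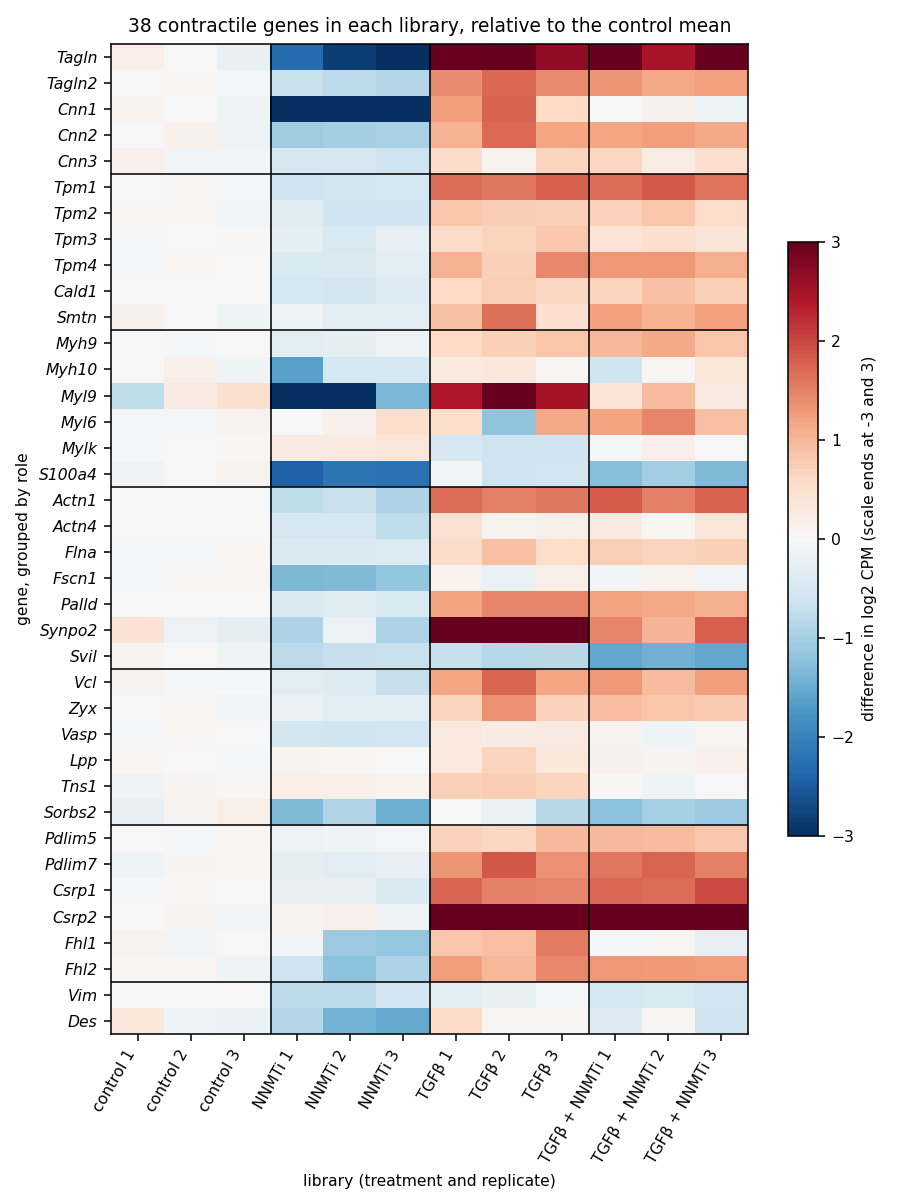
Heat map of 38 contractile genes (rows, grouped by role) in the 12 libraries (columns), coloured by the difference in log2 CPM from the control mean, with colours ending at -3 and 3. The columns with the inhibitor alone are mostly blue, the TGFβ columns mostly red, and the combined columns red except for genes such as *S100a4*, *Svil* and *Sorbs2*.

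The heat map of all genes by library shows both directions together. Whole blocks, such as the tropomyosins, keep 1 colour within a group of libraries, while the myosin block holds genes of opposite colour in the same libraries.

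Transgelins and calponins bind along actin filaments, and *Tagln* and *Cnn1* are known as markers of smooth muscle and of myofibroblasts. *Tagln* stood at 48, 41.6 and 35.6 CPM in the controls, 8.15, 5.56 and 4.59 with the inhibitor, 327, 569 and 264 with TGFβ and 371, 230.1 and 342 with both (replicates 1 to 3 in order, here and below). The 4 groups of *Tagln* did not overlap, except that TGFβ and combined libraries were interleaved. It rose 9.32-fold with TGFβ (log2 difference 3.22 ± 0.31, SE; adjusted p 1.61e-05) and 51.4-fold between the inhibitor and the combined group, a log2 difference of 5.68 ± 0.37 (adjusted p 5.94e-07). The combined group differed from TGFβ by a log2 of -0.31 (95% interval -0.95 to 0.34, adjusted p 0.549). *Tagln* fell 6.82-fold with the inhibitor (log2 -2.77 ± 0.36, adjusted p 0.000975), a call lost (0.062) when all libraries were thinned, that is, drawn at random down to the total of the shallowest. *Cnn1* stood at 20.8, 19.4 and 17.5 CPM in the controls, 1.21, 1.77 and 0.983 with the inhibitor, 46.5, 66.6 and 29.1 with TGFβ and 19, 21 and 17.6 with both. Here the inhibitor libraries lay far below all others, and the combined libraries overlapped the controls. *Cnn1* fell 14.5-fold with the inhibitor (log2 -3.86 ± 0.31, adjusted p 2.96e-07) and 2.55-fold from TGFβ to the combined group (log2 -1.35 ± 0.21, adjusted p 0.000514). Its combined level differed from control by a log2 of 0.00, with a 95% interval of -0.50 to 0.50.

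*Cnn2* stood at 112, 122 and 99.7 CPM in the controls, 52.8, 54.7 and 56.3 with the inhibitor, 227, 358 and 251 with TGFβ and 254, 262 and 244 with both. This non-muscle calponin rose 2.52-fold with TGFβ and fell 2.03-fold with the inhibitor (adjusted p 3.95e-07 and 8.91e-05), and its combined libraries lay within the range of the TGFβ libraries. *Tagln2* stood at 311, 327 and 302 CPM in the controls, 196, 181 and 169 with the inhibitor, 840.4, 1029 and 833 with TGFβ and 788, 690.1 and 732 with both. *Tagln2*, the widely expressed transgelin, also moved, 2.88-fold up (adjusted p 1.77e-09) and 1.72-fold down (adjusted p 6.69e-05), but its combined libraries all lay below those with TGFβ (log2 -0.29, adjusted p 0.0741, and 0.0336 without TGFβ replicate 3). *Cnn3* stood at 1254, 1062 and 1061 CPM in the controls, 772, 788 and 727 with the inhibitor, 1679, 1203 and 1769.6 with TGFβ and 1761, 1310.2 and 1583 with both. The acidic calponin *Cnn3* had smaller differences, 1.38-fold up and 1.48-fold down, and TGFβ replicate 2 lay within the controls. Its rise was not called without control replicate 2 or 3 (adjusted p 0.0564 to 0.0567) or when scaled by library size alone (0.0522). Its fall was not called without control replicate 1 or any inhibitor replicate (0.0559 to 0.0879), nor its combined level against control without control replicate 2 or 3 or combined replicate 1 or 3 (0.0594 to 0.103). A near-identical copy, *Gm4815*, held 85 counts against 123529 for *Cnn3*, so its counts are slightly uncertain. The identifiers in the files are ENSMUSG00000032085 for *Tagln*, ENSMUSG00000026547 for *Tagln2*, ENSMUSG00000001349 for *Cnn1*, ENSMUSG00000004665 for *Cnn2* and ENSMUSG00000053931 for *Cnn3*.

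**Figure D2:**
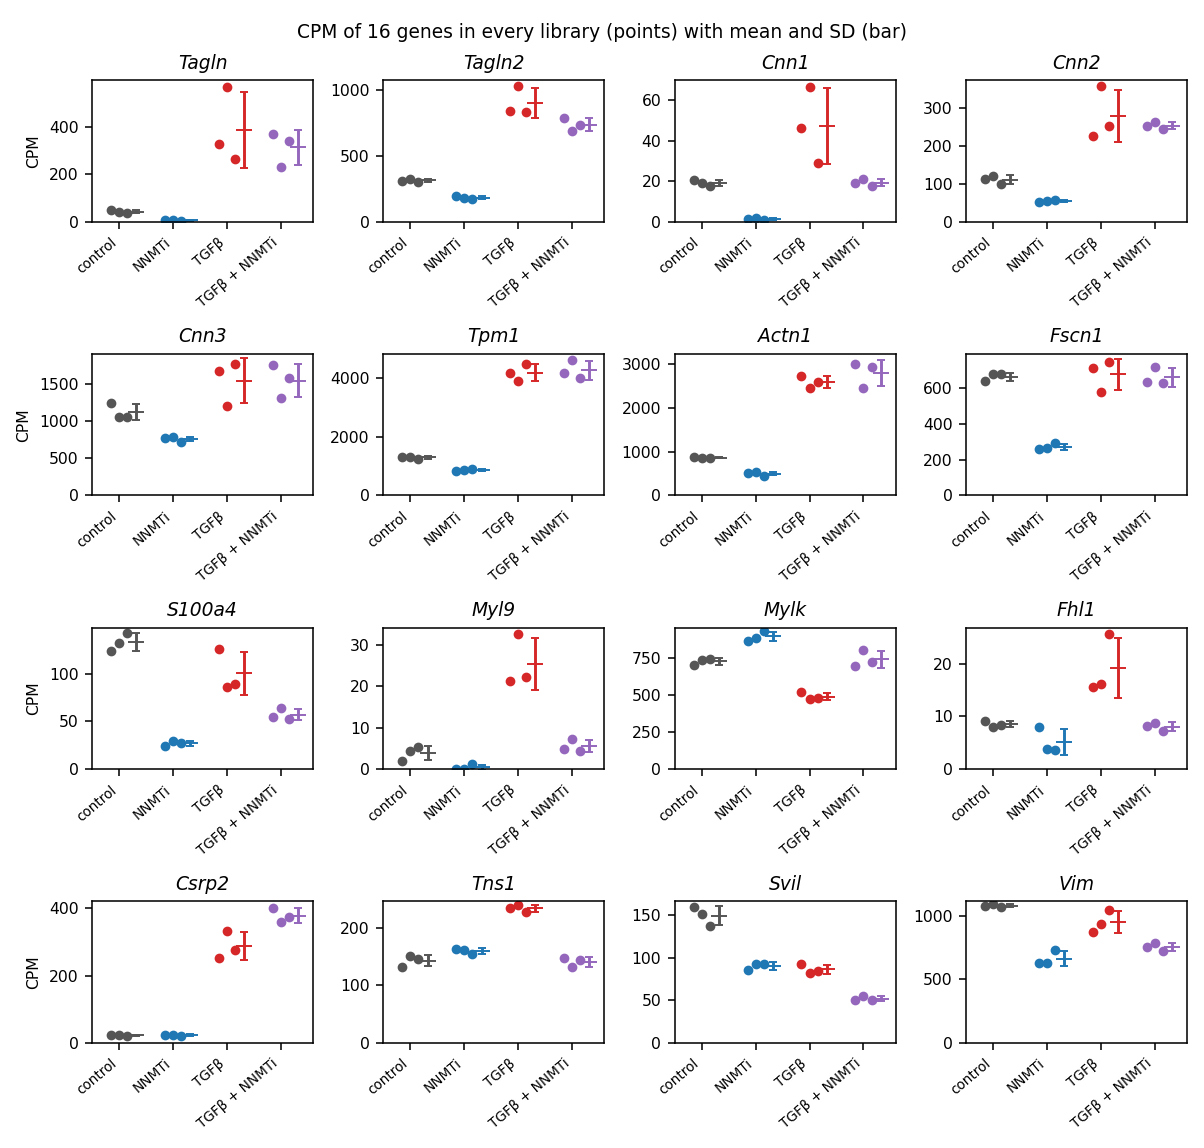
CPM of 16 of the genes (vertical axes, each from 0) in every library, as points by group, with the group's mean and SD beside them (n = 3). The combined libraries of *Cnn1* and *Fhl1* overlap the controls, those of *Tpm1* and *Actn1* overlap the TGFβ libraries, those of *Csrp2* lie above them, and *Svil* is lowest in the combined group.

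Tropomyosins are coiled coils that lie along the actin filament, and all 4 of these genes rose with TGFβ. *Tpm1* stood at 1317, 1325 and 1249 CPM in the controls, 844, 882 and 894 with the inhibitor, 4175, 3903 and 4475 with TGFβ and 4165, 4630.1 and 3991 with both. *Tpm2* stood at 31, 31.8 and 28.7 CPM in the controls, 23.6, 20.0 and 20.1 with the inhibitor, 54.8, 52.2 and 50.1 with TGFβ and 49.3, 54.7 and 44.5 with both. Both rose with TGFβ, *Tpm1* 3.23-fold (log2 1.69 ± 0.09, adjusted p 1.25e-10) and *Tpm2* 1.72-fold (adjusted p 5.5e-05), and both fell with the inhibitor, 1.48-fold and 1.44-fold. *Tpm3* stood at 193, 200.3 and 203 CPM in the controls, 164, 142 and 167 with the inhibitor, 294, 316 and 348 with TGFβ and 264, 283 and 262 with both. *Tpm4* stood at 326, 353 and 343 CPM in the controls, 247, 252 and 268 with the inhibitor, 702, 560.0 and 927 with TGFβ and 838, 839 and 729.9 with both. *Tpm3* rose 1.6-fold with TGFβ and fell 1.26-fold with the inhibitor (adjusted p 1.79e-05 and 0.036). *Tpm4* rose 2.14-fold (adjusted p 4.25e-06), and its inhibitor libraries, although all below the controls, missed the threshold (log2 -0.41, adjusted p 0.0663). The inhibitor call of *Tpm2* was lost without control replicate 1 or 2 or inhibitor replicate 2 or 3 (adjusted p 0.0548 to 0.0661), and that of *Tpm3* without any control or inhibitor replicate (0.0533 to 0.173). Both were lost with thinned libraries (0.577 and 0.106). *Tpm4* was called lower without TGFβ replicate 2 or 3 (0.000789 and 0.00791). *Tpm3-rs7*, a near-identical copy of *Tpm3*, held 7624 counts against 23598 for *Tpm3*, so reads of that pair may be split between them.

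Caldesmon binds actin, myosin and tropomyosin, smoothelin marks contractile smooth muscle, and leiomodin 1 nucleates filaments there. *Cald1* stood at 2561, 2610.0 and 2543 CPM in the controls, 1771, 1759 and 1929 with the inhibitor, 3905, 4287 and 3975 with TGFβ and 4076, 4755 and 4196 with both. *Smtn* stood at 131, 121 and 110.0 CPM in the controls, 110.2, 94.6 and 96 with the inhibitor, 220.4, 380.1 and 171 with TGFβ and 282, 249 and 284 with both. *Cald1* rose 1.58-fold with TGFβ and fell 1.41-fold with the inhibitor (adjusted p 1.83e-05 and 0.00187), with no overlap in either case. *Smtn* rose 2.15-fold (adjusted p 0.00197) with TGFβ replicate 2 far above the other TGFβ libraries, and its inhibitor difference was a log2 of -0.27 (adjusted p 0.552). *Lmod1* was barely detected, with 12, 0 and 9 counts in the controls, 0, 1 and 0 with the inhibitor, 14, 4 and 1 with TGFβ and 6, 9 and 5 with both. *Lmod1* stood at 1.34, 0 and 0.907 CPM in the controls, 0, 0.118 and 0 with the inhibitor, 1.51, 0.354 and 0.383 with TGFβ and 0.694, 1.01 and 0.66 with both, and its libraries were uneven within the control and TGFβ groups. With counts pooled within a group and scaled to its TMM-adjusted library totals, the controls were 20.6 times the inhibitor group. The exact 95% counting interval, 3.32 to 854, covers counting error only. Between the combined group and TGFβ, the 6 tested genes of the tropomyosin group missed the threshold, with log2 differences from -0.24 for *Tpm3* to 0.14 for *Tpm4*. Their 95% intervals together ran from -0.46 (*Tpm3*) to 0.57 (*Smtn*). Without TGFβ replicate 3 *Tpm4* was called there (adjusted p 0.0354), and without TGFβ replicate 2 *Smtn* was (0.00388), as was the fall of *Smtn* with the inhibitor (0.0389).

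Non-muscle myosin II is a heavy chain pair with regulatory and essential light chains, switched on when myosin light chain kinase, *Mylk*, phosphorylates the regulatory chain. *Myh9* stood at 1169.5, 1140.3 and 1178 CPM in the controls, 918, 947 and 1038 with the inhibitor, 1772, 1917 and 2062 with TGFβ and 2324, 2547 and 2078 with both. *Myh10* stood at 11.2, 12.6 and 10.3 CPM in the controls, 3.41, 7.69 and 7.75 with the inhibitor, 13.9, 14.3 and 11.9 with TGFβ and 7.41, 11.7 and 14.7 with both. *Myh9*, the heavy chain of myosin IIA, rose 1.65-fold with TGFβ (log2 0.72 ± 0.10, adjusted p 1.22e-05) and 2.39-fold between the inhibitor and the combined group (adjusted p 8.89e-09). *Myh10*, that of myosin IIB, had a TGFβ difference of 0.26 on the log2 scale (95% interval -0.36 to 0.88), and its inhibitor libraries all lay below the controls at an adjusted p of 0.0689. It was 1.79-fold higher in the combined group than with the inhibitor (adjusted p 0.025), although these libraries overlapped, and this call was lost without inhibitor replicate 1 or combined replicate 2 or 3 (0.0626 to 0.134), and with thinned libraries (0.231). With the inhibitor alone, falls were called without TGFβ replicate 2 for *Myh9* (0.0145) and *Myh10* (0.0243), and for *Myh10* without combined replicate 1 (0.0454). Between the combined group and TGFβ, *Myh9* was called higher without TGFβ replicate 2 or 3 (0.0412 and 0.0355).

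*Myl9* stood at 2.01, 4.48 and 5.24 CPM in the controls, 0, 0.118 and 1.2 with the inhibitor, 21.2, 32.5 and 22.2 with TGFβ and 4.98, 7.3 and 4.49 with both. This regulatory light chain gene was at or near 0 in inhibitor replicates 1 and 2, which held 0 and 1 counts, while replicate 3 held 11. *Myl9* rose 6.51-fold with TGFβ (log2 2.70 ± 0.42, adjusted p 0.000184). It fell 8.5-fold with the inhibitor (adjusted p 0.0106, but 0.0952 with thinned libraries) and 4.55-fold from TGFβ to the combined group (log2 -2.19 ± 0.41, adjusted p 0.00429). Without inhibitor replicate 3 the fitted fall, which then rests on 1 inhibitor count, was 55.5-fold, and the combined group was 79.0-fold above the inhibitor rather than 12.2-fold. Its combined libraries overlapped the controls (log2 0.52, 95% interval -0.52 to 1.55). *Myl6* stood at 132, 130.0 and 145 CPM in the controls, 134, 150.5 and 194 with the inhibitor, 196, 58.8 and 299 with TGFβ and 312, 373 and 251 with both. *Myl6*, the essential light chain, was low in TGFβ replicate 2 and was not called in any of the 6 comparisons. Without that replicate it was called with TGFβ (adjusted p 0.0223), and in the combined group against the inhibitor (0.00451) and against control (0.00173). The 5 near-identical copies of *Myl6* in the table held 5 to 462 counts against 19136 for *Myl6*.

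*Mylk* and *S100a4* were the genes of this group called lower with TGFβ. *Mylk* stood at 700.4, 738 and 745 CPM in the controls, 866, 885 and 929.6 with the inhibitor, 517, 470.3 and 479.8 with TGFβ and 693, 805 and 721 with both. The kinase gene *Mylk* fell 1.49-fold with TGFβ (log2 -0.57 ± 0.09, adjusted p 5.75e-05) and rose 1.51-fold from TGFβ to the combined group (log2 0.60 ± 0.09, adjusted p 0.000284), where it overlapped the control libraries. Its 1.23-fold rise with the inhibitor alone was called at an adjusted p of 0.0464. That call was lost without any control or inhibitor replicate or combined replicate 1 or 3 (0.068 to 0.201), and with size factors from DESeq2's method (0.0623) or library size alone (0.124). Its lower level in the combined group than with the inhibitor was not called without inhibitor replicate 2 or 3 or combined replicate 1 or 3 (0.0645 to 0.117). *S100a4* stood at 124, 132 and 142 CPM in the controls, 24.2, 29.2 and 27.7 with the inhibitor, 126, 86.2 and 88.8 with TGFβ and 54.4, 63.7 and 52.8 with both. *S100a4*, whose product binds the myosin IIA tail and promotes filament disassembly, fell 4.91-fold with the inhibitor (log2 -2.29 ± 0.14, adjusted p 1.48e-08), and its inhibitor libraries lay below all others. It fell 1.77-fold from TGFβ to the combined group (adjusted p 0.000845). With TGFβ it was 1.32-fold lower at an adjusted p of 0.0277, with TGFβ replicate 1 among the controls, and this call was lost without control replicate 2 or 3 or TGFβ replicate 2 or 3 (0.067 to 0.11), and with thinned libraries (0.0607). The identifiers in the files are ENSMUSG00000022443 for *Myh9*, ENSMUSG00000067818 for *Myl9*, ENSMUSG00000022836 for *Mylk* and ENSMUSG00000001020 for *S100a4*.

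Among proteins that tie filaments together, the α-actinins cross-link stress fibres and filamin A forms networks under the membrane. *Actn1* stood at 868, 848 and 855 CPM in the controls, 508, 538 and 453 with the inhibitor, 2725, 2443 and 2575 with TGFβ and 2996, 2457 and 2936 with both. *Actn1* fell 1.72-fold with the inhibitor (log2 -0.78 ± 0.10, adjusted p 5.01e-05) and rose 3.01-fold with TGFβ (log2 1.59 ± 0.10, adjusted p 7.3e-10), and its combined libraries overlapped those with TGFβ. *Flna* stood at 452, 451 and 478 CPM in the controls, 341, 339 and 346 with the inhibitor, 685, 855 and 676 with TGFβ and 770.3, 737 and 761 with both. *Flna* rose 1.61-fold and fell 1.35-fold in the same comparisons, the fall not being called without control replicate 3 (adjusted p 0.0534). *Actn4*, at 839 ± 6.33 CPM in the controls and 558 ± 53.9 with the inhibitor (mean ± SD, n = 3), fell 1.5-fold with the inhibitor (adjusted p 0.00214). Its TGFβ libraries all lay above the controls but missed the threshold (log2 0.26, adjusted p 0.0781), which was passed without TGFβ replicate 2 (0.0101). Its combined level against control was called without TGFβ replicate 2 or combined replicate 2 (0.032 and 0.0491).

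Fascin bundles filaments in filopodia, and palladin organises α-actinin in stress fibres. *Fscn1* stood at 637, 676 and 678 CPM in the controls, 259, 266 and 290.5 with the inhibitor, 710.4, 579 and 743 with TGFβ and 632, 717 and 627 with both. *Fscn1* fell 2.44-fold with the inhibitor (log2 -1.29 ± 0.10, adjusted p 2.85e-07), while its control, TGFβ and combined libraries overlapped one another. The TGFβ difference was 0.03 on the log2 scale (95% interval -0.21 to 0.27) and that between the combined group and TGFβ -0.04 (-0.28 to 0.20). *Palld* stood at 383, 384 and 385 CPM in the controls, 286, 301 and 280.1 with the inhibitor, 881, 1065 and 1062 with TGFβ and 888, 864 and 824 with both. *Palld* rose 2.61-fold with TGFβ and fell 1.33-fold with the inhibitor (adjusted p 1.7e-09 and 0.00914), and it was called lower in the combined group than with TGFβ without TGFβ replicate 1 (0.0361).

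*Svil* stood at 159, 152 and 137 CPM in the controls, 85.4, 92.2 and 93 with the inhibitor, 92.5, 82.2 and 83.8 with TGFβ and 50.1, 54.9 and 50.2 with both. *Svil*, whose product supervillin links actin and myosin II to the membrane, was lowered by each agent, 1.73-fold by TGFβ and 1.66-fold by the inhibitor (adjusted p 4.73e-06 and 8.41e-05). The combined libraries were lower still, 2.89-fold below control (log2 -1.53 ± 0.10, adjusted p 1.09e-09), and the interaction was -0.01 (95% interval -0.33 to 0.31). *Synpo2*, which encodes the actin bundler myopodin, had 9 counts over the 3 controls, 2 with the inhibitor, 144 with TGFβ and 37 with both. *Synpo2* stood at 0.558, 0.242 and 0.202 CPM in the controls, 0, 0.237 and 0 with the inhibitor, 5.6, 6.82 and 5.74 with TGFβ and 1.5, 1.01 and 1.98 with both. It rose 17.6-fold with TGFβ (log2 4.14 ± 0.54, adjusted p 7.81e-06) and fell 4.07-fold from TGFβ to the combined group (adjusted p 0.00694). With counts pooled within groups, the combined level was 19.7 times that with the inhibitor, with a counting interval of 5.07 to 168 for counting error. This difference was called (adjusted p 0.000434). Inhibitor replicate 2 held both inhibitor counts. Without it the inhibitor group was at 0 and the fitted fold went from 16.7 to 103, which depends on edgeR's default prior count. This gene's values rest on few counts: its combined call against control ended without control replicate 3 (adjusted p 0.0569), and its fall between TGFβ and the combined group was not called without TGFβ replicates 2 and 3 together (0.0932). With thinned libraries the combined group was not called against TGFβ (0.257), the inhibitor (0.131) or control (0.353).

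Vinculin, zyxin and VASP gather where stress fibres meet the membrane, and tensin 1 links actin to integrins there. *Vcl* stood at 135, 122 and 119.5 CPM in the controls, 101, 94 and 77.6 with the inhibitor, 287, 421 and 284 with TGFβ and 307, 243 and 299 with both. *Zyx* stood at 147, 150.1 and 137 CPM in the controls, 126, 115 and 114 with the inhibitor, 231, 375 and 233 with TGFβ and 276, 256 and 249 with both. Both rose with TGFβ, *Vcl* 2.64-fold (adjusted p 8.29e-07) and *Zyx* 1.94-fold (adjusted p 4.95e-05), with TGFβ replicate 2 the highest in each. Inhibitor libraries lay wholly below the controls for both, at log2 differences of -0.47 (adjusted p 0.0612) and -0.29 (0.263). Without TGFβ replicate 2 both were called lower (*Vcl* 0.00076, *Zyx* 0.00581), and *Vcl* also without TGFβ replicate 3 (0.0401) or combined replicate 2 (0.0353). *Vasp*, which promotes filament elongation, fell 1.49-fold with the inhibitor (adjusted p 0.000479), from 129 ± 5.99 to 86.5 ± 1.35 CPM. It was 1.2-fold higher with TGFβ at an adjusted p of 0.0295, a call lost without control replicate 1 or 3, any inhibitor replicate, TGFβ replicate 1, or combined replicate 1 or 3 (0.0547 to 0.116), and with library size alone (0.135). With thinned libraries *Vasp* was not called with TGFβ (0.0949), with the inhibitor (0.148) or between the inhibitor and the combined group (0.081). *Lpp*, a relative of zyxin, rose 1.35-fold with TGFβ (adjusted p 0.0023) and had an inhibitor difference of 0.05 on the log2 scale (95% interval -0.18 to 0.29). It was called lower in the combined group than with TGFβ without TGFβ replicate 1 or 3 (0.0267 and 0.0206).

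*Tns1* stood at 132, 150.0 and 146 CPM in the controls, 163, 161 and 154 with the inhibitor, 233, 240.2 and 228 with TGFβ and 147, 131 and 144 with both. The TGFβ libraries of *Tns1* lay above all others, and the combined libraries overlapped the controls. *Tns1* rose 1.64-fold with TGFβ (log2 0.71 ± 0.09, adjusted p 5.6e-06) and fell 1.66-fold from TGFβ to the combined group (log2 -0.73 ± 0.09, adjusted p 4.33e-05). The inhibitor alone gave a log2 difference of 0.16 (95% interval -0.05 to 0.36). *Sorbs2* stood at 11, 13.9 and 15 CPM in the controls, 5.06, 6.86 and 4.59 with the inhibitor, 13.1, 11.4 and 7.27 with TGFβ and 5.44, 6.41 and 6.07 with both. *Sorbs2*, an adaptor of adhesion sites and Z-discs, fell 2.43-fold with the inhibitor (log2 -1.28 ± 0.23, adjusted p 0.00154) and was 1.86-fold lower in the combined group than with TGFβ (adjusted p 0.0225). The latter call was lost without TGFβ replicate 1 or any combined replicate (0.0531 to 0.0939), and its TGFβ and control libraries overlapped. With thinned libraries *Sorbs2* was not called with the inhibitor (0.221), between TGFβ and the combined group (0.381) or in the combined group against control (0.102).

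LIM-domain adaptors dock on α-actinin and zyxin, and the smooth muscle LIM protein gene *Csrp2* had a larger log2 rise with TGFβ than any other of the 38 genes except the thinly counted *Synpo2*. *Csrp2* stood at 22.1, 23.2 and 20.9 CPM in the controls, 23.8, 24.5 and 19.9 with the inhibitor, 251, 332 and 277 with TGFβ and 401, 358 and 375 with both. *Csrp2* rose 13-fold (log2 3.70 ± 0.13, adjusted p 6.49e-13), and its inhibitor and control libraries overlapped (log2 0.04, 95% interval -0.25 to 0.33). The combined libraries lay wholly above those with TGFβ, a 1.32-fold rise (adjusted p 0.026) that was not called without TGFβ replicate 1 or combined replicate 1 or 3 (0.0504 to 0.0938). *Csrp1* stood at 74.2, 77.6 and 76 CPM in the controls, 64, 63.9 and 56.2 with the inhibitor, 257, 217 and 209 with TGFβ and 249.8, 245 and 296 with both. *Pdlim7* stood at 82.8, 94.5 and 93 CPM in the controls, 74.2, 70.6 and 76.1 with the inhibitor, 226, 328 and 232 with TGFβ and 271, 300.3 and 258 with both. *Csrp1* rose 3.01-fold and *Pdlim7* 2.92-fold with TGFβ (adjusted p 1.89e-09 and 2.35e-08). Neither was called with the inhibitor, although its libraries lay below the controls, at log2 differences of -0.31 (adjusted p 0.0942) and -0.29 (0.188). Without TGFβ replicate 2 both falls were called (0.0171 and 0.0104), as was a higher *Pdlim7* in the combined group than with TGFβ (0.0415). *Pdlim5* stood at 179.7, 176 and 188 CPM in the controls, 159, 166 and 177 with the inhibitor, 293, 280.4 and 354 with TGFβ and 356, 350.5 and 315 with both. *Pdlim5* rose 1.7-fold with TGFβ (adjusted p 8.83e-06), and its inhibitor and control libraries overlapped.

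The genes of the LIM-only proteins FHL1 and FHL2 both rose with TGFβ. *Fhl1* stood at 9.15, 7.99 and 8.37 CPM in the controls, 8.04, 3.79 and 3.6 with the inhibitor, 15.5, 16.1 and 25.6 with TGFβ and 8.22, 8.76 and 7.13 with both. *Fhl2* stood at 44.3, 44.1 and 38.9 CPM in the controls, 27.4, 18 and 22.2 with the inhibitor, 102, 85.4 and 116 with TGFβ and 104, 103 and 101 with both. *Fhl1* rose 2.16-fold with TGFβ (adjusted p 0.00288) and fell 2.28-fold from there to the combined group (log2 -1.19 ± 0.27, adjusted p 0.00816). Its inhibitor replicate 1 lay among the controls and the other 2 below them (log2 -0.72, adjusted p 0.133). Without that replicate this fall was called (0.0141), as was a rise from the inhibitor to the combined group (0.00474), while the fall from TGFβ was lost without combined replicate 3 (0.0517) and the rise with TGFβ with thinned libraries (0.0688). *Fhl2*, a coactivator that moves between adhesions and the nucleus, rose 2.36-fold with TGFβ and fell 1.88-fold with the inhibitor (adjusted p 1.28e-06 and 0.000467), and the combined group differed from TGFβ by 0.04 (95% interval -0.27 to 0.35).

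The intermediate filament genes missed the threshold with TGFβ. *Vim*, the vimentin of mesenchymal and cultured cells, was at 1082 ± 8.84 CPM in the controls, 663 ± 57.5 with the inhibitor, 952 ± 85.5 with TGFβ and 756 ± 33 with both (mean ± SD, n = 3). It fell 1.63-fold with the inhibitor (adjusted p 7.9e-05) and 1.26-fold from TGFβ to the combined group (adjusted p 0.0312), and its TGFβ difference was -0.19 on the log2 scale (95% interval -0.40 to 0.03), called without TGFβ replicate 3 (adjusted p 0.0394). Its fall between TGFβ and the combined group was not called without any 1 of 9 libraries, the 3 controls, inhibitor replicates 1 and 2, TGFβ replicate 3 and the 3 combined libraries (0.0524 to 0.158). Without TGFβ replicate 2 it was called higher in the combined group than with the inhibitor (0.0347). *Des* stood at 4.8, 3.39 and 3.23 CPM in the controls, 1.87, 1.18 and 1.09 with the inhibitor, 5.71, 3.9 and 3.83 with TGFβ and 2.78, 3.82 and 2.38 with both. *Des*, the desmin of muscle, was low throughout and fell 2.73-fold with the inhibitor (log2 -1.45 ± 0.36, adjusted p 0.0158), with no overlap with the controls. This call was lost without control replicate 1 or inhibitor replicate 2 or 3 (0.0693 to 0.0905), and its higher level in the combined group than with the inhibitor without inhibitor replicate 2 or 3 or combined replicate 2 (0.0769 to 0.103). Both were lost with thinned libraries (0.658 and 0.207).

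**Figure D3:**
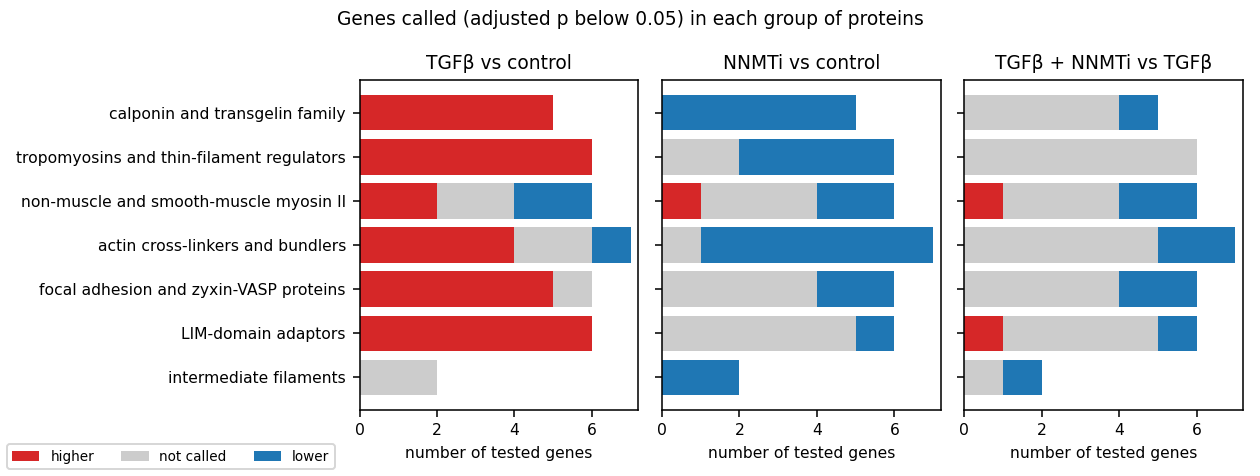
Number of tested genes (horizontal axis) called higher, lower or not called in each functional group of the list, for 3 comparisons. With TGFβ all 6 LIM-domain adaptors were called higher, while with the inhibitor 1 of them was called lower. More of them were called lower with only the control and inhibitor libraries fitted. Of 7 cross-linkers, 6 were called lower with the inhibitor, and 2, *Svil* and *Synpo2*, once TGFβ was present. The interaction was called for 2 of these 7, and the numbers of calls do not themselves test a change of effect.

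Whether the inhibitor acted differently with and without TGFβ was tested as an interaction, the log2 difference of the inhibitor in the presence of TGFβ minus that in its absence. It was called positive for 9 of the 38 genes and negative for 1, where 0.641% and 0.471% of all genes were called, and its median was 0.48 against -0.02. Positive interactions were those of *Cnn1* (2.51 ± 0.39, adjusted p 0.00222), *Tagln* (2.46 ± 0.46, 0.0356), *S100a4* (1.47 ± 0.20, 0.000609) and *Fscn1* (1.25 ± 0.15, 0.000173). Smaller ones were called for *Fhl2*, *Actn1*, *Cnn2*, *Tpm1* and *Cald1*, from 0.60 to 0.95. All 9 fell with the inhibitor alone, and with TGFβ present their inhibitor differences were less negative or, for *Tpm1*, *Cald1*, *Actn1* and *Fhl2*, slightly above 0 (0.03 to 0.12). In *Fscn1*, for example, 2.44-fold became a log2 difference of -0.04. *Tns1* had the negative one (-0.89 ± 0.13, adjusted p 0.00112) and fell with the inhibitor in the presence of TGFβ. *Myl9* and *Svil*, which fell in both settings, had interactions of 0.90 (95% interval -0.98 to 2.79) and -0.01 (-0.33 to 0.31).

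**Figure D4:**
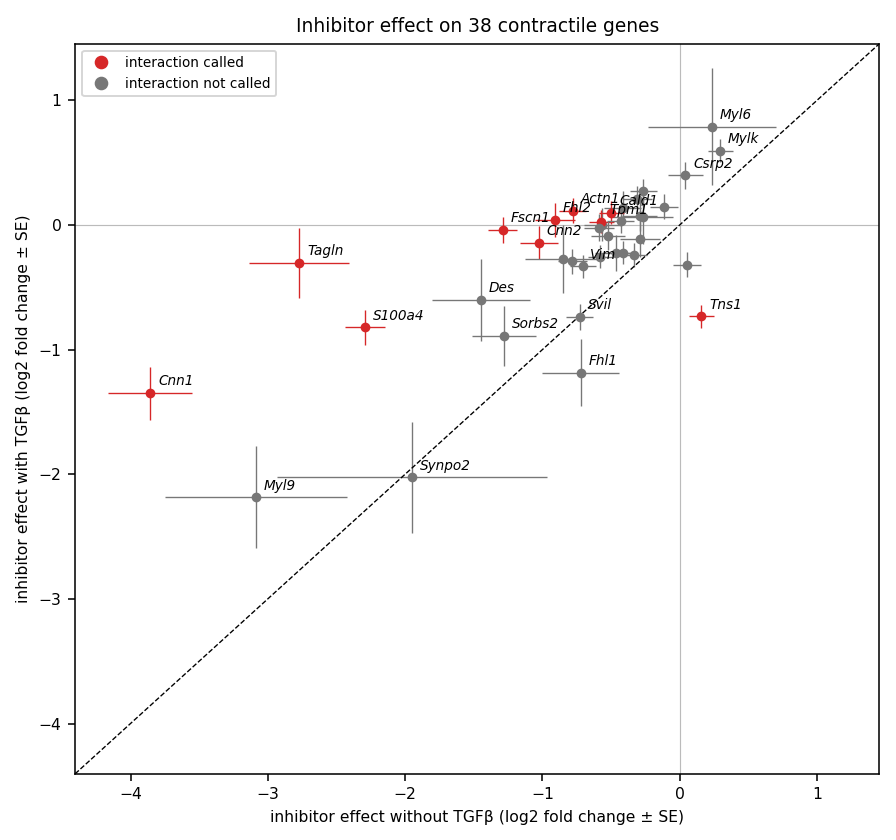
Inhibitor effect on 38 contractile genes with TGFβ (vertical axis) against that without TGFβ (horizontal axis), both as log2 fold change with SE as bars. The dashed line marks equal effects, and red points have a called interaction. Most points lie above the line, *Cnn1*, *Tagln* and *S100a4* farthest among the called, and *Tns1* lies below it.

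The number of positive interactions depended on single libraries. It was 18 without TGFβ replicate 2, 19 without TGFβ replicates 2 and 3, and 4 without control replicate 1, control replicate 2 or inhibitor replicate 2. *Cnn1*, *S100a4*, *Actn1*, *Fscn1* and *Tns1* were called whichever library was left out. *Tagln* was not called without any control replicate, inhibitor replicate 2 or 3, TGFβ replicate 1, or combined replicate 1 or 3 (adjusted p 0.0608 to 0.093). *Cnn2* lost its call without control replicate 1 or 2, inhibitor replicate 1 or 2, or TGFβ replicate 1 (0.0525 to 0.112), and *Tpm1* without any control or inhibitor replicate (0.0542 to 0.116). *Cald1* lost it without any control replicate or inhibitor replicate 1 or 2 (0.0681 to 0.115), and *Fhl2* without control replicate 1 or 2, inhibitor replicate 2 or 3, or combined replicate 1 or 3 (0.0553 to 0.0852). The genes gained when 1 library was left out were *Actn4*, *Csrp1*, *Csrp2*, *Flna*, *Myh9*, *Pdlim7*, *Smtn*, *Tagln2*, *Tpm4* and *Zyx*, and *Palld* and *Vim* were gained without TGFβ replicates 2 and 3 together (adjusted p 0.0353 and 0.00674). With thinned libraries the calls of *Tagln* (0.438), *Cnn1* (0.0903), *Tpm1* (0.0705) and *Fhl2* (0.316) were lost. Over 20 alternative settings for each comparison between groups, and 19 for the interaction, 0 called differences of the 38 genes turned direction.

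Read the other way, as the effect of TGFβ with and without the inhibitor, the same term says that the log2 difference of TGFβ was more positive for 9 of the genes when the inhibitor was present. Of the 28 genes higher with TGFβ alone and the 30 higher with TGFβ in the presence of the inhibitor, 25 were the same, 89.3% and 83.3% of each list. For all genes tested these shares were 69.0% and 74.3%. Of the 22 genes lower with the inhibitor alone and the 9 lower with it in the presence of TGFβ, 6 were the same, 27.3% and 66.7% of each list, against 46.2% and 38.4% for all genes. These paired comparisons share no library. Most of the 38 tested genes were in each list of rises, and 22 of the 38 were in the first list of falls. Much of each overlap therefore follows from the sizes of the lists. The shares of all genes come from lists that hold far smaller parts of the whole, so they are no measure of agreement here.

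**Figure D5:**
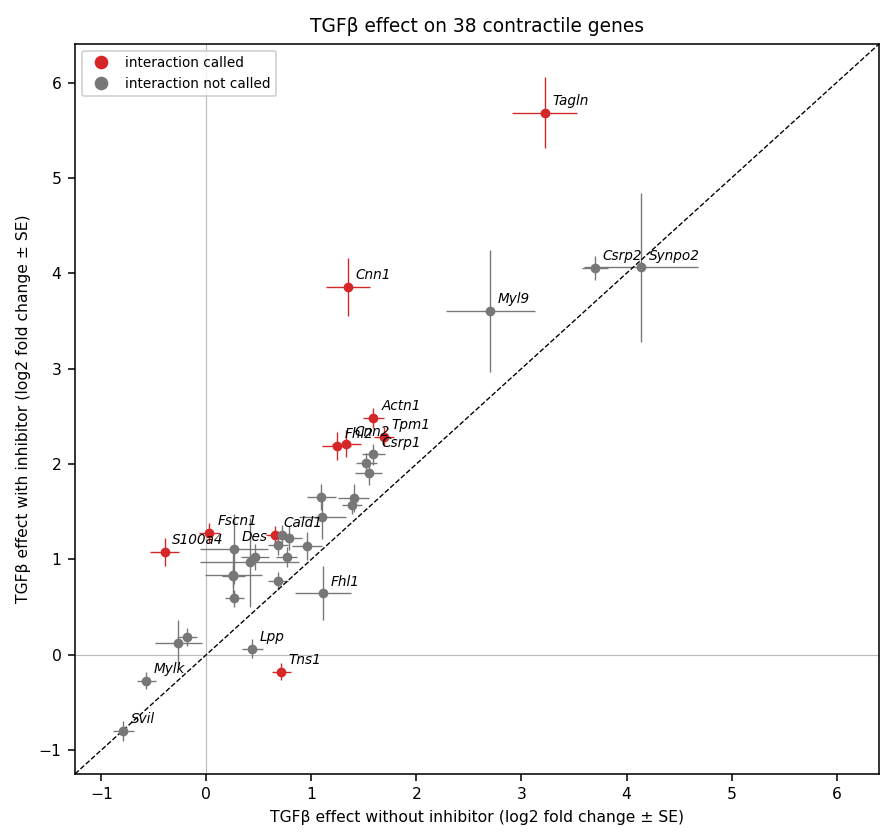
TGFβ effect on 38 contractile genes with the inhibitor (vertical axis) against that without it (horizontal axis), both as log2 fold change with SE as bars; the dashed line marks equal effects and red points have a called interaction. *Tagln* and *Cnn1* lie farthest above the line, *Csrp2* and *Synpo2* lie near it, and *Tns1* lies below.

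The plot of TGFβ effects with and without the inhibitor places most of the list above the line of equal effects, and in that plot *S100a4* is negative on 1 axis and positive on the other. *S100a4* fell 1.32-fold with TGFβ alone and rose 2.11-fold with TGFβ in the presence of the inhibitor (log2 1.08 ± 0.14, adjusted p 9.14e-06), and its combined level was 2.33-fold below control (adjusted p 1.29e-06).

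Other genes that build the same structures are set beside the same shares of all genes tested, 19.4% higher and 17.1% lower with TGFβ and 2.47% higher and 5.80% lower with the inhibitor. Of 30 tested genes of actin turnover and branching, 16 rose and 3 fell with TGFβ, among them the capping gene *Capg* (log2 2.37), thymosin β4 *Tmsb4x* (1.67), profilin 2 *Pfn2* (-1.87) and ezrin *Ezr* (-1.12). With the inhibitor 4 fell, led by *Capg* (-2.22 ± 0.21, adjusted p 1.64e-06) and *Tmsb4x* (-0.93 ± 0.21, 0.0169), and *Pfn2* rose (0.62 ± 0.14, 0.0116). Between the combined group and TGFβ, *Capg* (-1.58) and *Gsn*, gelsolin (-0.67), fell. These 2 of 30 are near the 6.97% of all genes called lower there.

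Of 21 tested adhesion plaque genes outside the list, 13 rose and 2 fell with TGFβ, led by *Nexn* (log2 3.99) and *Lims2* (2.93) and by *Sdc4* (-0.95) and *Pxn* (-0.50). *Fblim1*, which links filamin to adhesion sites, was the 1 of 21 called with the inhibitor (-1.71 ± 0.17, adjusted p 4.19e-06) and between the combined group and TGFβ (-1.04 ± 0.16, 0.000404). In both comparisons 1 of 21 is near the share of all genes. *Fblim1* stood at 54.6, 54.4 and 49.8 CPM in the controls, 14.4, 19.4 and 14.7 with the inhibitor, 71.1, 113 and 79.2 with TGFβ and 43.5, 48.1 and 37 with both. Of 21 tested paralogs of the listed genes, 10 rose and 3 fell with TGFβ, led by *Pdlim1* (3.61) and *Ldb3* (2.46) and by *Tns2* (-1.07) and *Pdlim2* (-0.77). With the inhibitor 8 fell, led by *Fhl3* (-1.29) and *Pdlim2* (-1.10). Between the combined group and TGFβ 6 fell, where 6.97% of all genes did, again led by *Pdlim2* (-1.22) and *Fhl3* (-0.79). *Tns2*, a relative of *Tns1*, rose (0.75 ± 0.16, adjusted p 0.00527), where 3.45% of all genes did. Among the tested genes of these lists the interaction was called for 1 paralog, the regulatory light chain gene *Myl12a* (0.79 ± 0.17, adjusted p 0.0256). Of all genes tested, 0.641% had a positive interaction called and 0.471% a negative one. These lists share *Ldb3*.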

How the data were processed

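Messenger RNA of 12 libraries was counted per gene, and the deposited table holds raw counts that the authors made with STAR and HTSeq, per the submitters' processing notes, which give no versions. Those notes list the build GRCh38, while the identifiers are mouse Ensembl genes, so no gene positions are taken from the table. Of 55487 genes, 55141 were matched to a symbol. Reads in no gene (21.1% to 26.8% of a library) and ambiguous reads (0.613% to 0.802%) were left out. The strand setting of the counting is not given in the sources used here, so reads of overlapping genes on opposite strands may not be told apart.

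Counts were filtered with filterByExpr, scaled with TMM and fitted with edgeR 4.0.16 (R 4.3.3, limma 3.58.1) as 4 group means with 8 residual degrees of freedom. The robust quasi-likelihood test was used, with Benjamini-Hochberg adjustment over the 13581 genes tested and a threshold of 0.05. These fits kept edgeR's default prior count. A prior count of 3 was used only for the log2 CPM of the heat map and of the check of replicate numbers. The script was tested on simulated data. Replicates of a group differed by more than sampling noise. Confidence intervals on counts cover counting error only. Groups came from the sample labels.

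The genes, gene lists and tests were chosen with earlier results of these data known. Every library's value is printed for a gene called at 2-fold or more in any comparison, or in the calponin, tropomyosin or myosin II groups, and for a few others. Of the other lists (actin turnover, adhesion plaque, paralogs), the called genes with the largest differences are named, and 1 further list is not reported here. Alternatives were size factors as in DESeq2, library size alone, no filter, DESeq2 1.42.0, only the groups compared, a replicate block, thinning to 2584117 counts, and leaving out libraries.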

Additional observations from a re-analysis of the deposited data

Results flagged for a closer look

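The inhibitor's log2 difference with TGFβ minus that without it passed the test of the difference itself (edgeR interaction term, adjusted p below 0.05) for 10 of the 38 tested genes, and this is why they are listed. The values were 2.46 for *Tagln*, 2.51 for *Cnn1*, 0.88 for *Cnn2*, 0.60 for *Tpm1*, 0.60 for *Cald1*, 1.47 for *S100a4*, 0.89 for *Actn1*, 1.25 for *Fscn1*, 0.95 for *Fhl2* and -0.89 for *Tns1*. Over 19 alternative fits, those of *Actn1*, *Fscn1*, *S100a4* and *Tns1* had adjusted p-values of at most 0.0125, 0.00176, 0.00361 and 0.014. The highest adjusted p was 0.0903 for *Cnn1*, 0.112 for *Cnn2*, 0.115 for *Cald1*, 0.116 for *Tpm1*, 0.316 for *Fhl2* and 0.438 for *Tagln*. All 10 kept their sign in these fits. The cause was not tested.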

How the results depend on the processing

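No called difference of the 38 genes changed direction under 20 alternatives (19 for the interaction), among 133 called of 228 tests, and 101 changes of sign were found among values that were not called. With all libraries thinned to the shallowest, all genes called fell from 4961 to 2604 for TGFβ against control, from 1123 to 299 for the inhibitor, from 1416 to 351 between the combined group and TGFβ, from 4933 to 2445 between the combined group and the inhibitor, from 4321 to 2052 against control, and from 151 to 51 for the interaction, with 5 rather than 9 listed genes positive. Thinning ended 23 calls of the listed genes and gained 3. Fitting only the groups compared gave 2931 for the inhibitor and 408 between the combined group and TGFβ, with 1 rather than 2 listed genes higher there. Without TGFβ replicates 2 and 3, where the lone TGFβ library is assumed to vary like the others, the inhibitor gave 2464, the interaction 350, and 19 listed genes had a positive interaction. The interaction gave 306 without a filter and 266 with DESeq2. The 1 listed gene higher with the inhibitor, *Mylk*, became 0 with DESeq2-type size factors, library size alone or no filter.

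Leaving out 1 library at a time gave 591 to 2179 genes for the inhibitor. Of the listed genes 0 to 1 were then higher and 18 to 31 lower, rather than 1 and 22. Between the combined group and TGFβ it gave 762 to 1938 genes, with 1 to 5 listed genes higher. Between the combined group and the inhibitor, 1 to 2 listed genes were lower. The interaction was called for 65 to 399 genes, with 4 to 18 listed genes positive. The largest numbers, 2179 for the inhibitor and 399 for the interaction, came without TGFβ replicate 2, against 1123 and 151 with all libraries. Thinned fits had fewer counts, and fits without a library had fewer samples. The cause of these changes was not tested.

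Replicate numbers did not pair the libraries: deviations of same-numbered libraries correlated from -0.0847 to 0.202 over 18 pairs (median 0.0152), and 5 of 12 libraries correlated best with their own number. The replicate block changed 3 calls of the listed genes. With the inhibitor, *Myh10* was gained (adjusted p 0.0457) and *Mylk* lost (0.0593), leaving 0 higher, and the interaction of *Tagln* was lost (0.0617). Depth limits *Lmod1*, *Synpo2* and *Myl9*, which had 1, 2 and 12 counts over the inhibitor libraries.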
